A study of Mus musculus with 17 samples.

Results

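The 2 vehicle controls of a bulk RNA-seq experiment on purified mouse astrocytes were compared with each other: 4 cultures that received PBS and 3 that received DMSO. These 7 libraries, of 17 in the series, were chosen by their labels alone, and no measured value entered the choice. Astrocytes of C57BL/6 mice at postnatal day 2 had been isolated from whole brain without meninges, olfactory bulbs and cerebellum by immunopanning, in which cells pass over antibody-coated dishes. Dishes against CD45 and O4 deplete immune cells and oligodendrocyte precursors, and a dish against HepaCAM retains astrocytes. All cultures were kept in serum-free medium with HB-EGF, a ligand of the EGF receptor.

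DMSO, the solvent of a SMO agonist, was present for 3 d from day 3 in vitro, so that these cultures were collected at day 6. PBS, the solvent of the FGF ligands, was present for 7 d from day 2, with collection at day 9. Solvent, age of the culture, duration of treatment and preparation therefore cannot be told apart in any difference below. The samples are pools of cells, the labels name no batch, and nothing says which cultures came from separate animals, so p-values measure the spread between these samples. In bulk RNA, fewer cells of a kind and less RNA per cell cannot be told apart either.

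Neonatal astrocytes continue to divide after birth and then leave the cell cycle while they acquire gap junctions, ion and neurotransmitter transporters and a lipid metabolism that supplies neurons. HB-EGF supports their survival without serum. Gfap, Clu, Sparc and the metallothioneins are genes whose levels in astrocytes are known to shift with maturation, culture conditions and stress.

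Total counts ran from 32001914 to 48774253 per library. Levels are given in CPM, counts scaled to a common library size by the trimmed mean of M values (TMM) over the 7 libraries, and differences as log2(fold change) ± standard error from the edgeR quasi-likelihood fit, with p-values adjusted over all genes by the Benjamini-Hochberg method. Of the genes whose mean elsewhere was 5 to 10 CPM, a library lacked reads for 8.90% to 28.1%, so that a single 0 carries little weight. Transcripts of Slc1a3, Mlc1, Sox9 and Apoe were plentiful in all 7 libraries, as the label of astrocytes asks. Cx3cr1, Csf1r, Aif1 and Tmem119 of microglia, Pecam1, Cdh5 and Cldn5 of endothelium and all 5 hemoglobin and erythroid markers were at 0 in every library. The astrocyte marker Gjb6 was also at 0 in all 7.

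Across 13271 genes tested, 0 passed the threshold between the 4 PBS and the 3 DMSO libraries by edgeR, which is 0% called. The threshold was an adjusted p below 0.01 together with a log2(fold change) beyond 1 in either direction. At an unadjusted p under 0.05 there were 580 genes (4.37%), 388 higher (2.92%) and 192 lower (1.45%) in PBS, where 664 would be expected if no gene differed. limma-voom also called 0 genes, DESeq2 called 29 and edgeR without a filter on low counts called 21. The biological coefficient of variation was 117%. All 4 PBS values lay above all 3 DMSO values for 417 genes (3.14%) and below them for 435 (3.28%), together 6.42% of those tested. For a single gene an exact two-sided permutation test of 4 against 3 libraries has 35 splits and cannot go below p = 0.0571, a value that every gene without overlap reaches. If no gene differed, a share of about 0.0571 would be without overlap, near the 6.42% found. Lack of overlap is therefore given below as a description.

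The leading genes were taken only from those without overlap between PBS and DMSO, so that their separation was fixed by the choice. On the side of PBS they included Bdh1, Col26a1, Fads2 and Grm5. Bdh1, which interconverts the ketone bodies acetoacetate and beta-hydroxybutyrate, was at 15.4, 11.5 and 17.3 CPM in DMSO and at 56.3, 88.9, 99.0 and 58.7 CPM in PBS. Its log2(fold change) was 2.36 ± 0.40, and the adjusted p from edgeR was 0.533, the smallest of the comparison. Col26a1, a collagen gene, was at 10.3, 22.6 and 12.8 CPM in DMSO and at 54.4, 67.3, 82.6 and 94.2 CPM in PBS. Both PBS pairs were far from DMSO for this gene (2.29 ± 0.42; edgeR adjusted p = 0.616).

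Fads2, the delta-6 desaturase of polyunsaturated fatty acid synthesis, had 1287, 1360 and 1496 CPM in DMSO and 2104, 2121, 2396 and 2423 CPM in PBS. The spread inside each group was small beside the gap between them, and the log2(fold change) was 0.71 ± 0.17 (edgeR adjusted p = 0.978). Grm5 encodes the metabotropic glutamate receptor mGluR5 of immature astrocytes. The DMSO libraries had 29.9, 28.8 and 20.8 CPM, the first PBS pair (replicates 1 and 2) 40.0 and 68.2 CPM, and the second (replicates 3 and 4) 132 and 133 CPM. Calu, a calcium-binding protein of the secretory pathway, had 51.8 to 106 CPM in DMSO and 140 to 224 CPM in PBS.

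Ddit4, a stress-induced inhibitor of mTORC1, had 93.1 to 190 CPM in DMSO and 215 to 648 CPM in PBS. Irx1, a homeobox factor, had 6.18 to 27.6 and 42.8 to 90.6 CPM. Mcm5, a subunit of the replicative helicase, had at most 23.4 CPM in DMSO and 44.9 to 84.3 CPM in PBS. Pclaf, a PCNA-binding protein, had 3.86 to 15.3 CPM in DMSO and 37.3 to 57.6 CPM in PBS, and Lbr, the lamin B receptor, 3.88 to 14.6 and 30.5 to 60.8 CPM. Melk, a kinase of cycling cells, had no read in DMSO and 94, 470, 632 and 774 reads in PBS, which is at least 212-fold higher when 3 counts per library are taken as the floor. H1f5, a linker histone, was likewise without reads in DMSO and at least 164-fold higher in PBS. ENSMUSG00000120708, for which the table gives no symbol, had a single read in the 3 DMSO libraries and was at least 192-fold higher. None of these genes was called in the comparison of all 4 PBS libraries, where their adjusted p was 0.978 by edgeR.

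**Figure D1:**
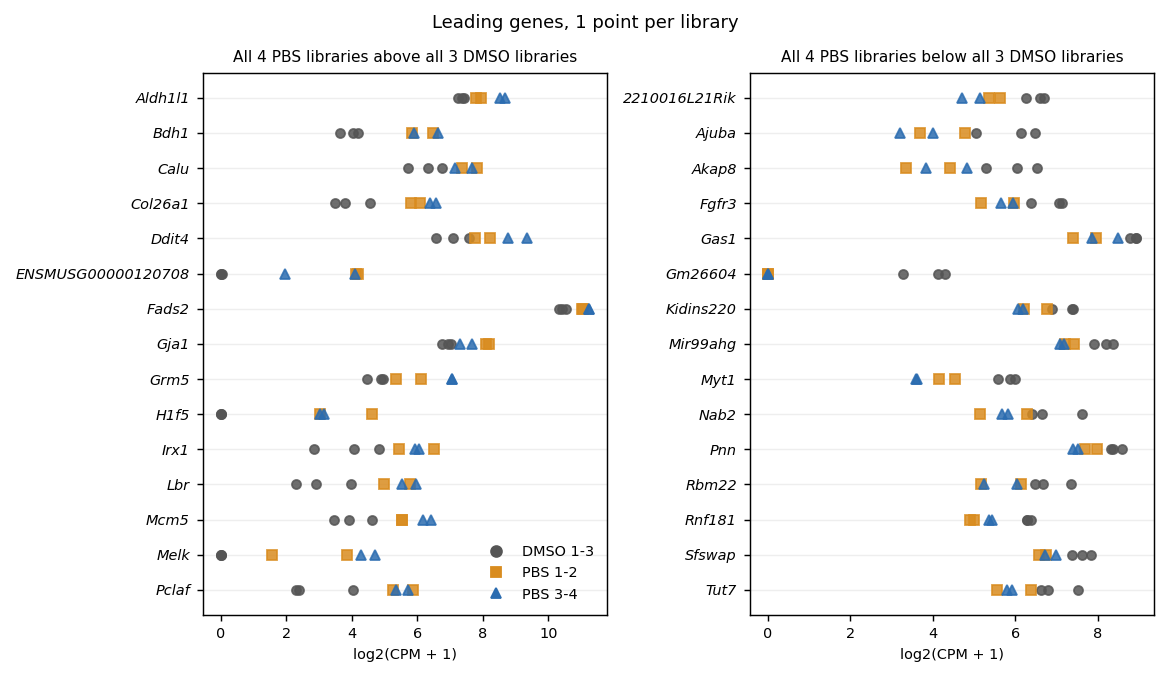
Level of the 15 leading genes on each side, as log2(CPM + 1) on the horizontal axis, with 1 point per library: grey circles DMSO, orange squares PBS replicates 1 and 2, blue triangles PBS replicates 3 and 4. The genes were chosen from those without overlap between PBS and DMSO. For Aldh1l1, Grm5 and Ddit4 the PBS pairs stand apart from each other, while for Bdh1, Fads2 and Mir99ahg they lie together; none of the genes passed adjustment in PBS against DMSO.

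The leading genes on the side of DMSO, chosen by the same rule, were likewise not called. Fgfr3, the FGF receptor of astrocytes and their progenitors, was at 133, 140 and 83.1 CPM in DMSO and at 35.2, 61.9, 60.8 and 49.1 CPM in PBS. The log2(fold change) of Fgfr3 was -1.20 ± 0.31 (edgeR adjusted p = 0.978). Gas1, a co-receptor for hedgehog ligands, was at 487, 437 and 485 CPM against 168, 247, 232 and 358 CPM. Mir99ahg, the host RNA of a miRNA cluster, was at 332, 294 and 241 CPM against 148, 170, 134 and 145 CPM, and its 2 groups were each tight (-0.95 ± 0.21).

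Of genes that act in splicing, Pnn (318 to 385 CPM in DMSO, 168 to 250 CPM in PBS), Sfswap (166 to 227 against 94.8 to 125 CPM) and Rbm22 (88.2 to 162 against 35.1 to 69.9 CPM) lay lower in all 4 PBS libraries. So did Akap8, a nuclear scaffold of protein kinase A, at 38.5 to 91.8 CPM in DMSO and 9.23 to 27.3 CPM in PBS. Myt1, a zinc finger factor of neural progenitors, had 46.8 to 62.6 CPM in DMSO and at most 22.3 CPM in PBS. Ajuba, a LIM protein that acts with the Hippo pathway, had 32.2 to 88.9 and 8.25 to 26.7 CPM. The rest of the 15 were Tut7, a terminal uridylyltransferase, Nab2, a repressor of EGR factors, Kidins220, a scaffold of neurotrophin receptors, the ubiquitin ligase gene Rnf181, the noncoding Gm26604 and 2210016L21Rik. Gm26604 had 914, 393 and 628 reads in DMSO and none in PBS, at least 178-fold lower in reads. The plot of leading genes by library shows all 30.

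The PBS group was itself divided into pairs. The pairs were chosen with earlier results of these data known. Their p-values therefore describe the separation and are not an independent test of it. In a fit of 14595 genes with PBS replicates 1 and 2 and PBS replicates 3 and 4 as separate groups, 0 genes passed the threshold between replicates 1 and 2 and DMSO by edgeR, with 648 at an unadjusted p under 0.05 (4.44%, 2.2% higher and 2.24% lower; 730 expected) and 205 by DESeq2. Between replicates 3 and 4 and DMSO 16 passed (0.11%), 13 higher (0.0891%) and 3 lower (0.0206%), and 68 had an adjusted p under 0.05 (0.466%, 0.315% higher and 0.151% lower). An unadjusted p under 0.05 was found for 7% of genes, 3.58% higher and 3.43% lower. Between replicates 3 and 4 and replicates 1 and 2, which had the same solvent, start and duration, 6 passed (0.0411%, of which 0.0206% in each direction) and 49 had an adjusted p under 0.05 (0.336%, 0.171% higher and 0.164% lower). An unadjusted p under 0.05 was found for 7.04%, 3.56% higher and 3.49% lower. These counts changed when a library was left out: without DMSO replicate 1 or without DMSO replicate 2 both fell to 0, without DMSO replicate 3 they were 3 and 7, and without a PBS library they were 48 to 105 and 40 to 181. Leaving out PBS replicate 2 gave 88 genes between PBS replicate 1 and DMSO. Both contrasts with DMSO share its libraries, so their values are set side by side below.

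The 13 genes above DMSO in PBS replicates 3 and 4 were Txn1, Ckb, Fabp7, Olig1, Lgals1, Igfbp4, Ddit4, Scd2, Fasn, Top2a, Prc1, Ube2c and Ncapd2. Txn1, which encodes thioredoxin, had 482, 518 and 666 CPM in DMSO, 663 and 565 CPM in PBS replicates 1 and 2 and 1832 and 1706 CPM in replicates 3 and 4. The last pair stood alone, by 1.67 ± 0.18 above DMSO (edgeR adjusted p = 0.00114) and by 1.53 ± 0.21 above the other PBS pair (adjusted p = 0.0047). Ckb, brain creatine kinase, had 2787, 2544 and 2986 CPM, then 2585 and 2891 CPM, then 6460 and 6852 CPM. The first 2 sets differed by -0.02 ± 0.14, while replicates 3 and 4 were higher by 1.26 ± 0.14 (edgeR adjusted p = 0.00114).

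Fabp7, the brain fatty acid binding protein of radial glia and young astrocytes, had 1364 to 1608 CPM in DMSO, 1685 and 1536 CPM in PBS replicates 1 and 2 and 3011 and 3224 CPM in replicates 3 and 4. Olig1, a transcription factor of oligodendrocyte precursors that some astrocyte progenitors also express, had 684 to 769 CPM, 653 and 545 CPM, and 1508 and 1704 CPM. Lgals1, which encodes galectin-1, had 33.4 to 41.5 CPM, 65.1 and 30.3 CPM, and 304 and 220 CPM, a log2(fold change) of 2.79 ± 0.34 against DMSO. Igfbp4, an IGF-binding protein, had 21.5 to 44.1 CPM, 18.5 and 32.7 CPM, and 216 and 173 CPM. In each of these 4 genes replicates 3 and 4 were above all other libraries, and they differed from the first PBS pair too. Ddit4 was also called in this contrast (1.95 ± 0.28; edgeR adjusted p = 0.00666), and so were Scd2, Fasn, Top2a, Prc1, Ube2c and Ncapd2, described with their groups below.

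The 3 genes below DMSO in PBS replicates 3 and 4 were Gnao1, Dlx2 and Malat1. Gnao1, the G protein alpha subunit most abundant in brain, had 469, 534 and 432 CPM in DMSO, 377 and 371 CPM in PBS replicates 1 and 2 and 153 and 144 CPM in replicates 3 and 4. Dlx2, a homeobox gene of interneuron and subpallial progenitors, had 68.2, 41.2 and 87.0 CPM, 44.4 and 96.5 CPM, and 4.79 and 4.40 CPM (-3.83 ± 0.57; edgeR adjusted p = 0.00671). Malat1, a nuclear noncoding RNA, took 45887, 50110 and 37654 CPM in DMSO, 37336 and 34416 CPM, and 19506 and 24825 CPM. All 4 PBS libraries were below DMSO for Malat1 and Gnao1, and for Dlx2 only replicates 3 and 4 were.

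Some genes lay on opposite sides of DMSO in the PBS pairs, and their means over all 4 PBS libraries were close to DMSO or between the pairs. Gfap, the intermediate filament of reactive and fibrous astrocytes, had 139, 199 and 183 CPM in DMSO, 258 and 320 CPM in the first PBS pair and 68.5 and 45.8 CPM in the second. Against DMSO its log2(fold change) was 0.74 ± 0.26 in the first pair (edgeR adjusted p = 0.947) and -1.60 ± 0.28 in the second (adjusted p = 0.0208). The pairs differed by -2.34 ± 0.31 (edgeR adjusted p = 0.0047). Over all 4 libraries the difference from DMSO was 0.00 on the log2 scale, and its sign depended on the fit.

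Clu, the secreted chaperone clusterin, was at 444, 437 and 596 CPM in DMSO, 755 and 784 CPM, and 252 and 221 CPM, and Sparc, a matricellular glycoprotein, at 1137, 1218 and 1405 CPM, 1952 and 2043 CPM, and 717 and 719 CPM. Neither gene had overlap between the 3 sets. Replicates 3 and 4 were lower than DMSO by edgeR for Clu (-1.06 ± 0.20; adjusted p = 0.0301) and Sparc (-0.81 ± 0.16; adjusted p = 0.0424). Meg3, an imprinted noncoding RNA, ran 198 to 231 CPM, 385 and 338 CPM, and 90.2 and 134 CPM, and passed between the PBS pairs (-1.69 ± 0.26; edgeR adjusted p = 0.0111). Mt1, a metallothionein, was at 7561, 8118 and 9758 CPM in DMSO and 7756 and 8182 CPM in PBS replicates 3 and 4, with 13167 and 13948 CPM in replicates 1 and 2. For Mt1 it was the first PBS pair that stood apart (adjusted p = 0.0428 between the pairs). Mt2 had the same order, with 17574 and 18525 CPM in that pair and 9988 to 14961 CPM elsewhere, and did not pass (edgeR adjusted p = 0.141).

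Clcf1, a cytokine of the CNTF family, had reads in all DMSO libraries and in PBS replicates 1 and 2 but none in replicates 3 and 4. In reads this is at least 246-fold lower than in DMSO. Glis3, a zinc finger factor, was at 30.6, 29.5 and 13.3 CPM in DMSO and 31.3 and 46.1 CPM in PBS replicates 1 and 2, against 0.144 and 0.160 CPM in replicates 3 and 4. It passed in both contrasts of that pair by edgeR (adjusted p = 0.0119 and 0.0111). Map1b, a microtubule protein of growing neurites, fell with all 4 PBS libraries below DMSO, most in replicates 3 and 4 (32.0 and 72.1 CPM against 186 to 242 CPM; edgeR adjusted p = 0.0116).

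**Figure D2:**
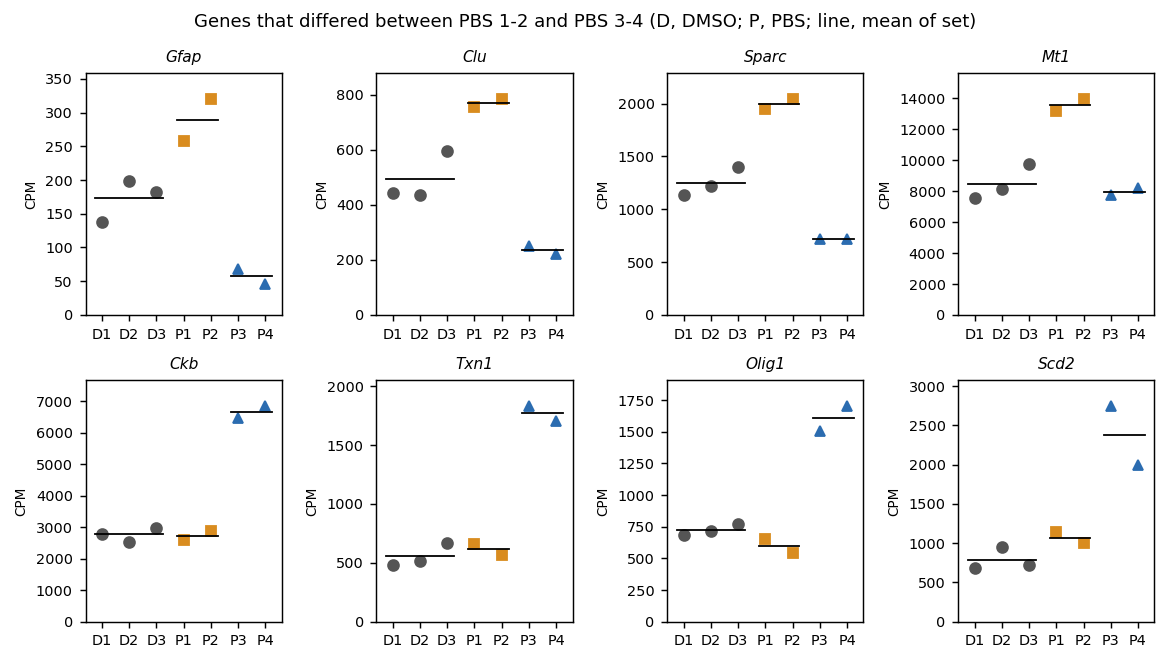
CPM of 8 genes that differed between the PBS pairs by edgeR, on linear axes from 0, by library (D1 to D3 DMSO, P1 to P4 PBS); horizontal lines are the means of DMSO, PBS 1-2 and PBS 3-4. Gfap, Clu and Sparc lie above DMSO in P1 and P2 and below it in P3 and P4, Mt1 is raised in P1 and P2, and Ckb, Txn1, Olig1 and Scd2 are highest in P3 and P4.

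Among lists with at least 8 genes tested, the mitosis list had the largest median difference. All 22 genes of the mitosis list had a higher mean in PBS than in DMSO, with a median log2(fold change) of 1.99 beside 0.02 over all genes, yet 0 were called by edgeR in the pooled comparison (11 at an unadjusted p under 0.05, where 2.92% of all genes were higher) and 2, Kif20a and Tpx2, did not overlap (3.14% for all genes). The PBS pairs were far apart, for the summed level was 452, 339 and 285 CPM in DMSO, 272 and 432 CPM in PBS replicates 1 and 2, and 2606 and 2270 CPM in replicates 3 and 4. The list median against DMSO was -0.12 in the first pair and 2.79 in the second. In the second, 7 of 22 passed an adjusted p under 0.05 by edgeR, all higher (0.315% of all genes did), and 5 of 22 passed between the pairs (0.171%).

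Ube2c, the ubiquitin-conjugating enzyme of the anaphase-promoting complex, had 6.15, 5.65 and 6.45 CPM in DMSO, 2.79 and 22.1 CPM in PBS replicates 1 and 2 and 133 and 149 CPM in replicates 3 and 4. Replicate 2 was between the others, and replicates 3 and 4 were higher than DMSO by 4.53 ± 0.67 (edgeR adjusted p = 0.00666). Top2a, topoisomerase II of dividing cells, had 141, 78.7 and 54.3 CPM, 53.9 and 129 CPM, and 601 and 599 CPM. Prc1, which bundles microtubules of the central spindle, had 15.9 to 26.7 CPM, 11.7 and 28.3 CPM, and 175 and 159 CPM. For both genes PBS replicates 1 and 2 fell within or next to the DMSO range.

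Plk1, a mitotic kinase, had 0.238 to 8.17 CPM in DMSO, 0.431 and 0.708 CPM in PBS replicates 1 and 2 and 80.9 and 124 CPM in replicates 3 and 4. Cdc20, the activator of the anaphase-promoting complex, had 6.81 to 16.5 CPM, 4.76 and 9.04 CPM, and 102 and 101 CPM. Mki67, the proliferation marker Ki-67, had 2.64 to 27.1 CPM, 11.3 and 16.1 CPM, and 142 and 158 CPM. Nusap1, a spindle protein, and Ncapd2, a condensin subunit outside the list, also passed in replicates 3 and 4 (edgeR adjusted p = 0.029 and 0.00826). Cdk1, the kinase of mitotic entry, passed between the PBS pairs only (10.9 and 31.4 against 161 and 170 CPM; 27.6 to 73.7 CPM in DMSO; edgeR adjusted p = 0.0286). Ccnd1, the D-type cyclin of entry into the cycle, rose with them to 201 and 309 CPM from 34.5 to 68.3 CPM in DMSO, and was at 24.1 and 57.8 CPM in the first PBS pair.

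Promoters of mitotic genes are known to carry CCAAT boxes, bound by NF-Y, and a cell cycle homology region with the core TTTGAA, bound by the MuvB complex that represses them in resting cells. Because these genes moved together, the windows of 3 of them are shown, taken from RefSeq on GRCm38.p6 and running in the direction of transcription. Capitals mark TTTGAA and CCAAT or their reverse complements TTCAAA and ATTGG. Ube2c is at chr2:164769679-164769978 on the plus strand, Cdc20 at chr4:118437294-118437593 on the minus strand and Plk1 at chr7:122159185-122159484 on the plus strand, each spanning the annotated transcription start.
Ube2c: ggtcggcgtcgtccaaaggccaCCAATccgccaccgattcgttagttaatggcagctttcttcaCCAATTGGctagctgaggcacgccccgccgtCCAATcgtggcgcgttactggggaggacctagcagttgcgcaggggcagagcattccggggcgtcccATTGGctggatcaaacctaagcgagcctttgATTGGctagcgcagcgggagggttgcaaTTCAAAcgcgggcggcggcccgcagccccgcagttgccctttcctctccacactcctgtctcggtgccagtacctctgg
Cdc20: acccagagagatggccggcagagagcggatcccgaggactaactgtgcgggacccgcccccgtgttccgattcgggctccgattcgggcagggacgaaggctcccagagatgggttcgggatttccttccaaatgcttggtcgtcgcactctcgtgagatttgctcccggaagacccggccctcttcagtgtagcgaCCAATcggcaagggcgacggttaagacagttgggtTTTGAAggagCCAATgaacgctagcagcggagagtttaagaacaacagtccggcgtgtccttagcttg
Plk1: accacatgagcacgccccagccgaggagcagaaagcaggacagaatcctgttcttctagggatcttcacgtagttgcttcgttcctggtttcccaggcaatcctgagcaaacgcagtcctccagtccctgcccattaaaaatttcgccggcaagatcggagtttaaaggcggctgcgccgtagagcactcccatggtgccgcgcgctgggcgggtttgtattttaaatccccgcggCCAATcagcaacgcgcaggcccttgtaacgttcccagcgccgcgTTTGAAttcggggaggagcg

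Searched on both strands, TTTGAA lay in 13 and CCAAT in 16 of the 18 mitosis genes with a window in the table. All 13 with TTTGAA also held CCAAT. Of 27025 genes with a promoter of the same 300 bases, 20.2% held TTTGAA, 41.1% CCAAT and 7.97% both, and of all 32851 promoters 17.9%, 37.4% and 6.95%. The 3 windows place TTTGAA 29 bases before the annotated start in Ube2c, 18 before it in Cdc20 and 30 after it in Plk1. In Ube2c, 2 of the 6 CCAAT matches, which face opposite ways, share 2 bases. Of 20 genes of DNA replication, 3 held TTTGAA and 13 CCAAT. A match of letters is a description of the window and not a measured site.

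DNA replication genes followed another pattern. Of 23 members 15 had a higher mean in PBS, with a median log2(fold change) of 0.96, and the medians against DMSO were 0.57 in PBS replicates 1 and 2 and 0.73 in replicates 3 and 4. Their summed level was 349, 380 and 481 CPM in DMSO and 585, 536, 783 and 614 CPM in PBS, so that all 4 PBS libraries were above DMSO. No member was called in any of the 3 contrasts with adjustment. At an unadjusted p under 0.05 by edgeR 2 were higher in PBS against DMSO (2.92% of all genes) and 3 in replicates 3 and 4 (3.58%). The members without overlap were Mcm5, the ribonucleotide reductase subunits Rrm1 and Rrm2 and the glycosylase gene Ung, 4 of 23, beside 3.14% of all genes. Gins2, of the GINS complex, ran from 0 to 10.3 CPM in DMSO and from 3.11 to 32.1 CPM in PBS, and Tyms, thymidylate synthase, ran 3.17 to 19.3 and 3.77 to 12.0 CPM. Inhibitors of cyclin-dependent kinases and p53 targets were at 1300 to 1500 CPM summed in DMSO and 1238 to 1442 CPM in PBS, with a list median of 0.15. The log2(fold change) ran from -0.51 ± 0.58 for Sesn1 to 1.90 ± 1.79 for Eda2r among members at 10 CPM or more in a group, and 0 of 20 were called by edgeR, with 1 at an unadjusted p under 0.05.

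All 12 genes of fatty acid synthesis had a higher mean over the 4 PBS libraries than in DMSO (median 0.73), with 0 called by edgeR and 7 at an unadjusted p under 0.05, beside 2.92% of all genes. In the first PBS pair 8 were higher and 4 lower (median 0.29), and in the second all 12 were higher (median 1.03). Acly, Scd2, Elovl6, Fads1 and Fads2 did not overlap, 5 of 12 beside 3.14% of all genes. Scd2, the stearoyl-CoA desaturase of brain, was at 689, 955 and 717 CPM in DMSO, 1140 and 1005 CPM in PBS replicates 1 and 2 and 2748 and 1998 CPM in replicates 3 and 4. The 3 sets formed steps for Scd2, and the last was above DMSO by 1.59 ± 0.19 (edgeR adjusted p = 0.0018) and above the first PBS pair by 1.14 ± 0.21 (adjusted p = 0.0286). Scd1, a related desaturase, stepped up in the last pair alone: 47.3, 32.2 and 25.9 CPM, 33.3 and 20.1 CPM, and 163 and 200 CPM.

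Against DMSO 6 of 12 members passed in PBS replicates 3 and 4 by edgeR, where 0.315% of all genes were higher: Scd2, Scd1, Fasn, Fads1, Fads2 and Srebf1. Fasn, fatty acid synthase, had 101, 92.1 and 119 CPM in DMSO, 145 and 111 CPM, and 312 and 313 CPM. Fads1, the delta-5 desaturase, rose from 193 to 228 CPM in DMSO to 413 and 457 CPM, with 266 and 282 CPM in the first PBS pair. Srebf1, the transcription factor that drives these genes, had 149, 150 and 136 CPM, 128 and 225 CPM, and 376 and 348 CPM. The smallest difference on the list was that of Me1, malic enzyme (0.02 ± 0.55).

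Cholesterol synthesis genes and SREBP2 targets had a median of 0.85, with 20 of 23 higher in PBS (0 called by edgeR, 4 at an unadjusted p under 0.05, beside 2.92% of all genes) and medians against DMSO of 0.28 and 1.36 in the PBS pairs. Their summed level was 684, 652 and 483 CPM in DMSO, 777 and 722 CPM in PBS replicates 1 and 2 and 1400 and 1554 CPM in replicates 3 and 4. Hmgcs1, HMG-CoA synthase, was the only member called in the second pair, 1 of 23 where 0.315% of all genes were higher. It was at 463 and 546 CPM against 234, 220 and 111 CPM in DMSO (1.42 ± 0.28; edgeR adjusted p = 0.0401). The members without overlap, 2 of 23 beside 3.14% of all genes, were Nsdhl (8.11 to 14.7 CPM in DMSO, 17.7 to 85.4 CPM in PBS) and Sqle (12.1 to 28.7 and 32.3 to 40.3 CPM), both enzymes of the sterol pathway. CCAAT, without regard to the rest of the sequence, was found in the promoter window of all 16 members of the list that had one, beside 41.1% of all genes. The sequence TCACNCCAC, with N any base, was also searched and lay in 1 of these 16, Hmgcs1, beside 1.44% of all genes.

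**Figure D3:**
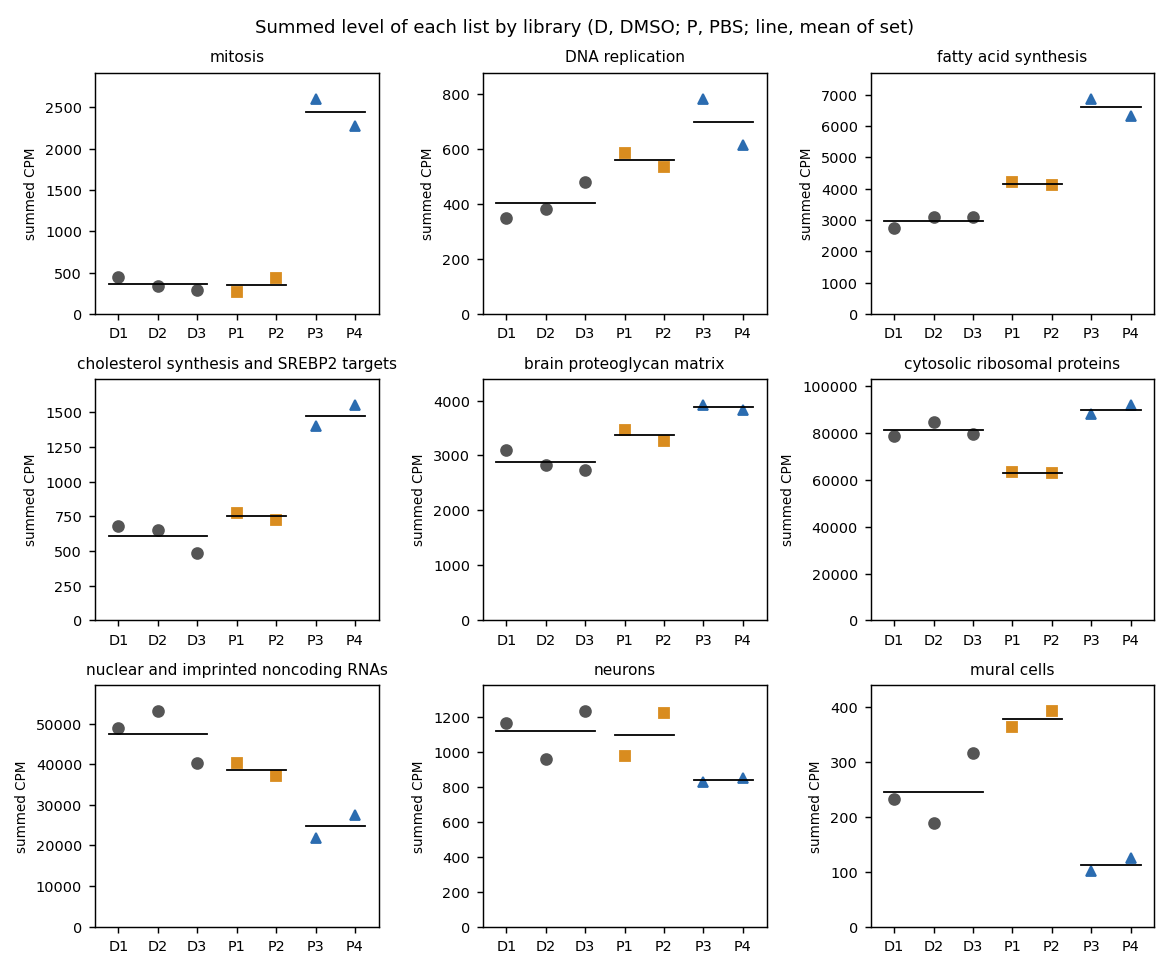
Summed CPM of 9 gene lists by library on linear axes from 0 (D1 to D3 DMSO, P1 to P4 PBS; lines, means of DMSO, PBS 1-2 and PBS 3-4). The mitosis sum is 272 to 452 CPM in the first 5 libraries and 2270 and 2606 CPM in P4 and P3, fatty acid synthesis climbs in steps, ribosomal protein genes are lowest in P1 and P2, and mural and neuronal markers are lowest in P3 and P4.

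The astrocyte markers lay on opposite sides of DMSO in the PBS pairs. Of 23 tested, 12 had a higher and 11 a lower mean over all 4 PBS libraries (median 0.03), with 0 called by edgeR and 7 at an unadjusted p under 0.05, beside 4.37% of all genes. Without overlap, 3 lay above (3.14% of all genes) and 3 below DMSO (3.28%). In PBS replicates 1 and 2 the means of 17 were above DMSO (median 0.38, 0 called by edgeR). At an unadjusted p under 0.05 by edgeR 9 were higher and 1 lower, beside 2.2% and 2.24% of all genes. In replicates 3 and 4 the means of 15 were below DMSO (median -0.45). There 11 were lower and 3 higher at an unadjusted p under 0.05, beside 3.43% and 3.58% of all genes. Past adjustment by edgeR in that pair were Gfap, Clu and Sparcl1, which fell (3 of 23, beside 0.151% of all genes). Aldh1l1 passed as well and rose (1 of 23, beside 0.315%). Between the pairs 20 of 23 were lower in replicates 3 and 4 (median -0.51), 12 at an unadjusted p under 0.05 (3.49% of all genes) and 2, Gfap and Clu, past adjustment (0.164%). Summed, the markers took 17246, 18613 and 19439 CPM in DMSO, 21018 and 22071 CPM in the first PBS pair and 15230 and 14456 CPM in the second. Aldh1l1, the folate enzyme used as a general astrocyte marker, was at 151, 163 and 172 CPM in DMSO, 247 and 222 CPM in PBS replicates 1 and 2 and 364 and 412 CPM in replicates 3 and 4. It was above DMSO in all 4 libraries and passed in replicates 3 and 4 (1.26 ± 0.21; edgeR adjusted p = 0.0116). Gja1, connexin 43 of astrocyte gap junctions, had the reverse order of pairs: 106, 128 and 122 CPM, 291 and 275 CPM, and 202 and 158 CPM (0.96 ± 0.25 over 4; edgeR adjusted p = 0.978).

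S100b, a calcium-binding protein of maturing astrocytes, was under 1 CPM in all 3 DMSO libraries and at 22.4, 12.3, 6.84 and 19.7 CPM in PBS. Despite the absence of overlap the difference of 4.39 ± 1.53 had an edgeR adjusted p of 1. Aqp4, the water channel of endfeet, had 49.9, 68.7 and 44.3 CPM in DMSO and 137, 88.9, 116 and 57.3 CPM in PBS, where replicate 4 overlapped with DMSO. The glutamate transporters Slc1a3 (1230 to 1352 CPM in DMSO, 1049 to 1455 CPM in PBS) and Slc1a2 (432 to 571 and 274 to 485 CPM) overlapped. Sox9, a glial transcription factor, had 1261 to 1389 CPM in DMSO, 1453 and 1485 CPM in the first PBS pair and 976 and 939 CPM in the second. The members below DMSO in all PBS libraries were Fgfr3, Glul, glutamine synthetase (1492 to 1645 CPM in DMSO, 951 to 1424 CPM in PBS), and Sparcl1, the secreted protein hevin.

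**Figure D4:**
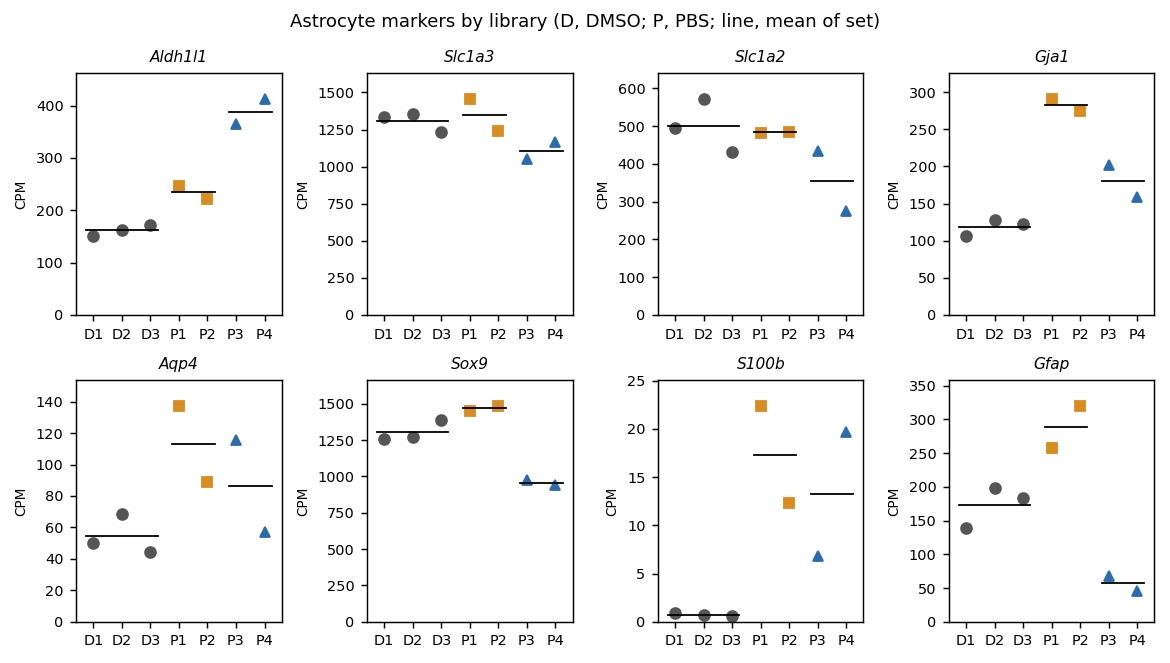
CPM of 8 astrocyte markers by library on linear axes from 0 (D1 to D3 DMSO, P1 to P4 PBS; lines, means of DMSO, PBS 1-2 and PBS 3-4). Aldh1l1, Gja1 and S100b are above DMSO in all 4 PBS libraries, Slc1a3 and Slc1a2 overlap, and Gfap is highest in P1 and P2 and lowest in P3 and P4.

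Genes of uptake, ion and water transport had a higher mean in PBS for 15 of 18 members (median 0.58; 0 called by edgeR, 7 higher at an unadjusted p under 0.05, beside 2.92% of all genes), with medians of 0.39 and 0.58 in the pairs. Of these, 6 did not overlap (3.14% of all genes), among them Gja1, Glud1, Abat, Kcnj16 and Slc4a4. Glud1, glutamate dehydrogenase, had 383, 410 and 362 CPM in DMSO and 658, 538, 617 and 495 CPM in PBS. Slc4a4, a sodium bicarbonate cotransporter, had 212, 160 and 159 CPM and 276, 271, 260 and 289 CPM. All 4 PBS libraries were above DMSO for both genes. Slc6a9, the glycine transporter GlyT1, had 84.6, 80.5 and 106 CPM in DMSO, 132 and 92.2 CPM in the first PBS pair and 250 and 242 CPM in the second, where it passed (1.44 ± 0.26; edgeR adjusted p = 0.0244). Kcnj16, an inward rectifier channel, had a wide spread (1.68 ± 0.81).

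The proteoglycans and tenascins of brain matrix had a higher mean in PBS for all 8 members tested (median 0.60), with 0 called by edgeR and 3 at an unadjusted p under 0.05 (2.92% of all genes). Free of overlap were 3 of 8, beside 3.14% of all genes. Ncan, neurocan, was at 361, 365 and 404 CPM in DMSO and 608, 462, 843 and 705 CPM in PBS. It passed in replicates 3 and 4 (1.04 ± 0.19; edgeR adjusted p = 0.0244). Vcan, versican, had 13.7 to 21.1 and 29.7 to 55.8 CPM, and Tnr, tenascin-R, 25.1 to 40.5 and 48.3 to 128 CPM. The smallest difference was that of Ptprz1, a receptor phosphatase (0.14 ± 0.19). Basement membrane and fibrous matrix genes, by contrast, had a median of 0.01 over 15, from Col11a1 (0.85 ± 0.61) to Col5a1 (-1.11 ± 1.02).

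Markers of immature glia had a median of 0.14 over 19 members in PBS against DMSO, with -0.08 in the first PBS pair and 0.50 in the second. Fabp7 and Hes5 were called in the second pair, 2 of 20 members tested there, where 0.315% of all genes were higher. Hes5, a Notch effector that maintains progenitors, had 225, 219 and 220 CPM in DMSO, 213 and 262 CPM, and 579 and 446 CPM (1.21 ± 0.21; edgeR adjusted p = 0.0149). Ccnd2, a D-type cyclin of radial glia, had 668 to 808 CPM in DMSO and 432 to 798 CPM in PBS. Id3, a BMP-induced inhibitor of differentiation, had 24.1, 92.8 and 58.2 CPM in DMSO and 112, 114, 210 and 293 CPM in PBS, and passed in replicates 3 and 4 (adjusted p = 0.0301).

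Genes of cytosolic ribosomal proteins set the PBS pairs apart in the other direction from their mean. Of 80 tested, 30 were higher and 50 lower over all PBS libraries (median -0.06). In PBS replicates 1 and 2 the means of 77 were below DMSO (median -0.35; 34 at an unadjusted p under 0.05, beside 2.24% of all genes, and 0 called by edgeR). In replicates 3 and 4 the means of 65 were above it (median 0.22; 1 called, beside 0.315% of all genes). Between the pairs all 80 were higher in replicates 3 and 4 (median 0.59), 52 at an unadjusted p under 0.05 (3.56% of all genes) and 2 of them, Rps2 and Rpl13a, past adjustment (edgeR adjusted p = 0.0189 and 0.0283). Summed, they took 78892, 84872 and 79430 CPM in DMSO, 63211 and 63006 CPM, and 88010 and 91943 CPM. Rps2 had 813, 578 and 645 CPM, 407 and 535 CPM, and 1296 and 1011 CPM. The member called in replicates 3 and 4 was Rpl22l1, a paralog of Rpl22, at 367 and 355 CPM against 82.3 to 185 CPM in DMSO. Rps15 was below DMSO in all 4 PBS libraries (670 to 832 and 414 to 610 CPM). Ribosomal protein genes have many processed pseudogenes, and how the counting split their reads is not given in the sources used here.

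Nuclear and imprinted noncoding RNAs took 48807, 53019 and 40402 CPM in DMSO, 40370 and 36983 CPM in PBS replicates 1 and 2 and 21938 and 27487 CPM in replicates 3 and 4, most of it Malat1. All 10 were lower in replicates 3 and 4 (median -0.77), 1 of them called, where 0.151% of all genes were lower. Neat1, the scaffold of paraspeckles, had 30.7 to 65.5 CPM in DMSO, up to 111 CPM in the first pair and 24.0 and 35.2 CPM in the second. Transcripts of the mitochondrial genome ran from 50174 to 75602 CPM in DMSO and from 74191 to 80750 CPM in PBS (median 0.26 over 9, 0 called by edgeR and 2 higher at an unadjusted p under 0.05, beside 2.92% of all genes). Of the 8 genes with most reads, mt-Rnr2, mt-Rnr1, mt-Nd1, mt-Nd2, mt-Nd4, mt-Cytb, Mt2 and Malat1, the ribosomal mt-Rnr2 was level with the median of all genes (74494 to 89533 CPM in DMSO, 72587 to 84580 CPM in PBS; -0.06 ± 0.16).

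**Figure D5:**
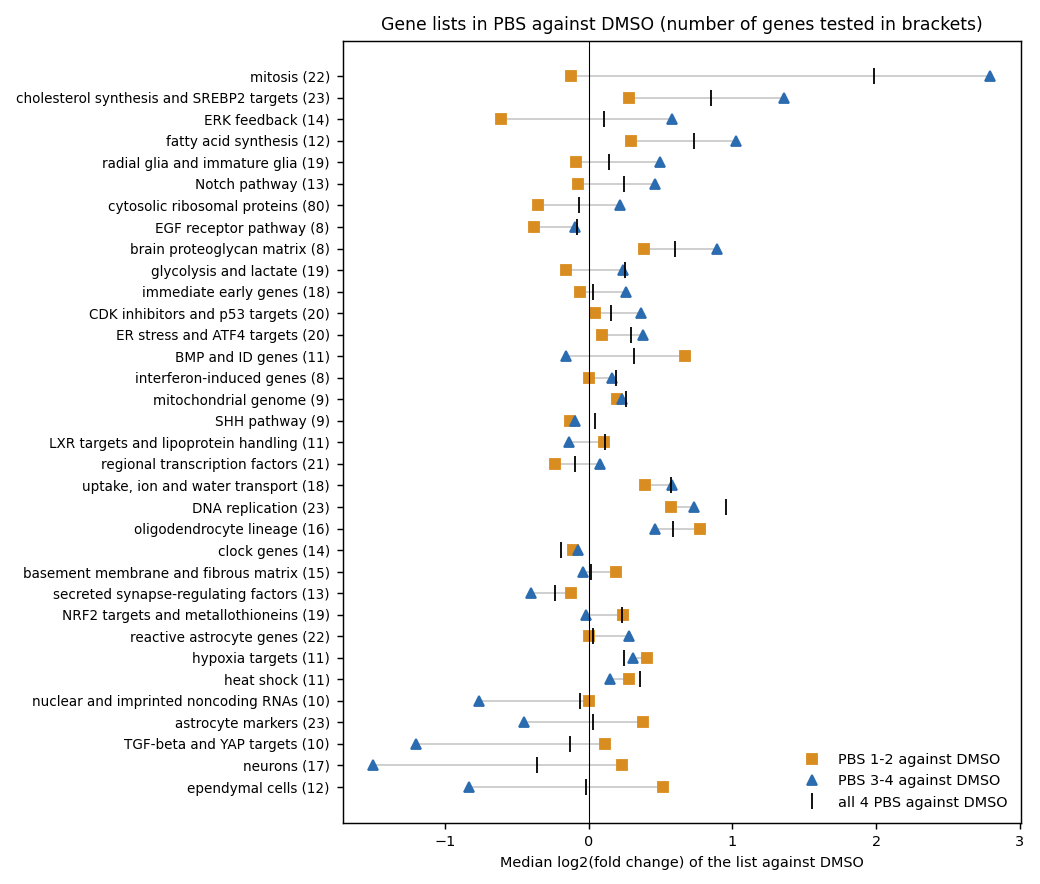
Median log2(fold change) against DMSO of each list with at least 8 genes tested in PBS against DMSO: orange squares PBS replicates 1 and 2, blue triangles replicates 3 and 4, black ticks all 4. Both contrasts use the same DMSO libraries. Mitosis (-0.12 and 2.79) has the widest gap between the pairs. Transport, proteoglycan, DNA replication, fatty acid, cholesterol and oligodendrocyte lineage lists are among those above 0 in both.

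Markers of other cells were read beside these groups. Microglial and macrophage markers summed to 7.79 to 23.3 CPM in DMSO and 5.17 to 27.8 CPM in PBS, with 12 of 19 at 0 in all libraries. Endothelial markers summed to 0 to 17.8 CPM and 8.95 to 18.1 CPM, and fibroblast markers to 5.34 to 25.9 and 7.70 to 42.1 CPM, with Fbln1 in the lead. Choroid plexus markers summed to 38.9 to 83.2 and 42.6 to 58.2 CPM, mostly Otx2. None of these 4 lists had a called member in any contrast, and their levels overlapped.

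Oligodendrocyte lineage markers summed to 2343 to 2837 CPM in DMSO, 2343 and 2381 CPM in PBS replicates 1 and 2 and 3970 and 4297 CPM in replicates 3 and 4. Besides Olig1, which was called, the sum followed Olig2, at 942 to 1433 CPM in DMSO, 758 and 950 CPM, and 1678 and 1803 CPM (edgeR adjusted p = 0.059 between the pairs). Pdgfra (17.8 to 49.8 CPM), Sox10 (66.6 to 133 CPM) and Gpr17 (18.9 to 48.6 CPM) overlapped between replicates 3 and 4 and the rest, Opalin and Ermn were at 0 throughout, and Enpp6 had a value of 1.82 ± 1.45. Of the 20 markers 16 were tested and 13 had a higher mean in PBS. The list medians against DMSO were 0.78 in the first PBS pair and 0.46 in the second. In the second pair 1 of 16 was called by edgeR, where 0.315% of all genes were higher. Between the pairs 7 were higher and 9 lower in replicates 3 and 4 (median -0.15), so the rise of the sum was not one of the list as a whole.

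Neuronal markers summed to 959 to 1231 CPM in DMSO, 978 and 1219 CPM in PBS replicates 1 and 2 and 827 and 849 CPM in replicates 3 and 4, where 13 of 17 were lower (median -1.50) and Dlx2 alone was called, beside 0.151% of all genes lower. Tubb3 went from 23.6 to 101 CPM in DMSO to 7.07 and 8.79 CPM, and Dlx1 from 59.9 to 97.6 CPM to 6.21 and 33.6 CPM. Slc17a6 and Slc17a7 were at 0 in all libraries, Dcx had 3.95 to 29.8 CPM, and Gap43 lay above DMSO in every PBS library (9.96 to 12.1 and 15.8 to 77.9 CPM). Mural markers summed to 190 to 316 CPM, 365 and 393 CPM, and 101 and 125 CPM, made of Acta2, Tagln and Pdgfrb, with Vtn, Kcnj8, Abcc9, Higd1b and Des at 0 throughout. Acta2, smooth muscle actin, was at 241 and 264 CPM in the first PBS pair and 70.6 and 82.3 CPM in the second (adjusted p = 0.0288, edgeR). Ependymal markers summed to 216 to 348, 461 and 494, and 231 and 254 CPM, led by Foxj1 (143 to 231, 324 and 325, and 171 and 208 CPM). These sums move with the PBS pairs, and their part in the differences between the pairs was not tested.

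Readouts of the pathways that the treatments of the series address did not pass between the vehicles. Ptch1, receptor and target of hedgehog signaling, had 81.2, 103 and 67.3 CPM in DMSO and 70.7, 82.3, 90.6 and 106 CPM in PBS (0.06 ± 0.28), and Gli1 had no read in any of the 7 libraries. The hedgehog list had a median of 0.04 over 9 genes, Gas1 being its member below DMSO in all PBS libraries, with Gli3 (0.38 ± 0.60) and Gli2 (-1.10 ± 1.34) inside the spread. Dusp6, an ERK phosphatase induced by FGF, had 46.3, 29.6 and 35.7 CPM in DMSO, 20.7 and 26.7 CPM in PBS replicates 1 and 2 and 66.9 and 98.2 CPM in replicates 3 and 4. The PBS pairs lay on either side of DMSO, but the difference of 1.80 ± 0.51 between them did not pass (edgeR adjusted p = 0.253). Egr1, an immediate early factor downstream of ERK, had 161, 128 and 97.1 CPM, 74.3 and 45.8 CPM, and 218 and 564 CPM, and did (edgeR adjusted p = 0.0111). Spry4 had 0 to 22.8 CPM in DMSO and 1.13 to 27.2 CPM in PBS.

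A second comparison with the same difference in days used libraries that the first did not: 4 FGF2 and 3 FGF10 cultures, collected at day 9, against 3 SAG cultures, collected at day 6. FGF2 and FGF10 were diluted in PBS and SAG in DMSO, so solvent, start and duration differ here as they do between the vehicles. Whether preparations were shared with the vehicles is not stated. The added factors differ as well, and none of these can be told apart from time. Of 14149 genes 3 passed the threshold (0.0212%), Ptch1, Grk3 and Cdk6, all lower with FGF than with SAG. An adjusted p under 0.05 was reached by 5 (0.0353%, 0.00707% higher and 0.0283% lower). The mean of Ptch1 was 469 CPM in SAG and 81.2 CPM in FGF. In the vehicles, scaled separately, it was 83.8 CPM (DMSO) and 87.4 CPM (PBS), so that SAG was the group that stood apart. An unadjusted p under 0.05 was found for 8.21%, 5.15% higher and 3.06% lower. Of the 542 genes at an unadjusted p under 0.05 in PBS against DMSO that were tested here, 62.4% had the same sign, beside 52.6% of the other 12351. Genes are not independent, and the share is given without a test. Bdh1 was higher by 1.04 ± 0.33 (edgeR adjusted p = 0.472), Gja1 by 1.85 ± 0.51 and Aqp4 by 1.46 ± 0.40 (adjusted p = 0.349 for both), and all 22 mitosis genes had a higher mean (median 1.28, 0 called by edgeR and 3 at an unadjusted p under 0.05). Mitotic genes varied widely between FGF libraries. Top2a had a mean of 368 CPM and a standard deviation of 267 CPM in FGF, with 176 and 68.4 CPM in SAG. For Ube2c these were 95.3 and 93.2 CPM in FGF and 20.5 and 11.2 CPM in SAG. Aldh1l1 (-0.08 ± 0.28), Grm5 (-0.28 ± 0.53) and Scd2 (-0.05 ± 0.27) were near 0 or within their standard error there. Sparcl1 was lower, with -1.44 ± 0.24 (edgeR adjusted p = 0.0394), and it was also below DMSO in all 4 PBS libraries (433, 505 and 481 against 375, 385, 191 and 244 CPM). Its mean was 920 CPM in SAG and 358 CPM in FGF, beside 473 CPM in DMSO and 299 CPM in PBS. For Gja1 these means were 59.7, 213, 119 and 232 CPM. SAG was thus the highest of these groups for Sparcl1 and the lowest for Gja1.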

How the data were processed

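Bulk RNA-seq libraries of immunopanned astrocytes had been prepared by the authors from the 3′ ends of poly(A) RNA after removal of BC1 transcripts, with a number of PCR cycles chosen per library, and the reads were aligned and counted with STAR. Values were deposited by the authors as whole-number counts for each gene, without normalization. The submitters' processing notes name STAR, DESeq2 and GRCm38, without versions. Annotation, strand setting and use of molecular identifiers are not given in the sources used here, so reads copied by PCR may have been counted more than once. The table holds 56805 features, of which 114 spike-ins were left out. Of the 56691 genes, 37200 had no count in the 7 libraries, and 77 symbols stand on more than 1 line and were kept apart.

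Groups and replicate numbers came from the labels, and days and doses from the labels and methods. Genes were kept by edgeR 4.0.16 (R 4.3.3) filterByExpr (min.count 10, min.total.count 15). After TMM scaling, quasi-likelihood tests were run without covariates for PBS against DMSO, for the PBS pairs in a fit of 3 groups, and for FGF2 with FGF10 against SAG. Counts of genes used an adjusted p below 0.01 with a log2(fold change) beyond 1 in either direction, single genes an adjusted p under 0.05. Standard errors were taken from the F statistic, and folds against a group with at most 3 counts per library were computed against that floor as lower bounds for reads, not for transcripts. Single genes were also tested by exact permutation of CPM (scipy), and the tests were checked on simulated counts. Alternatives were DESeq2 1.42.0, limma 3.58.1 (voom), other size factors, filters and thresholds, the replicate number as a block, all 17 libraries in the fit and each library left out in turn.

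The 44 gene lists come from general knowledge, and the members, the lists and the pairs of PBS libraries were chosen with earlier results of these data known. Genes were named by rule: up to 15 per direction without overlap and with a mean of at least 10 CPM, taken by adjusted p where none was called; of each list the called members or, with none, its extremes among members with a mean of at least 10 CPM in the higher group; the 8 genes with most reads; astrocyte markers; and pathway readouts. Genes called between the PBS pairs, and further members given with their values, were chosen after their values were seen. Within groups, no 2 libraries held the same counts. Precision is set by the spread between cultures, since reads are not independent molecules. Promoter sequences are those of RefSeq on GRCm38.p6. Some members of the lists are not reported by name here.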

Additional observations from a re-analysis of the deposited data

Results flagged for a closer look

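PBS replicates 3 and 4 and PBS replicates 1 and 2 had the same solvent and the same days. Differences between them passed an adjusted p under 0.05 by edgeR for 26 genes named in the text. The pairs were chosen with earlier results of these data known, so these p-values are a description. Mitotic and cell cycle genes were Top2a (adjusted p = 0.0111), Prc1 (0.0137), Cdc20 (0.0288), Plk1 (0.026), Cdk1 (0.0286) and Ccnd1 (0.0181), all higher in replicates 3 and 4. So were the lipid and glial genes Scd1 (0.0111), Scd2 (0.0286), Fabp7 (0.0191) and Olig1 (0.0047), the redox and energy genes Txn1 (0.0047) and Ckb (0.00442), and Lgals1 (0.0111), Igfbp4 (0.0111), Egr1 (0.0111), Rps2 (0.0189) and Rpl13a (0.0283). Lower in replicates 3 and 4 were Sparc (0.00442), Clu (0.0047), Gfap (0.0047), Dlx2 (0.0111), Glis3 (0.0111), Meg3 (0.0111), Acta2 (0.0288), Clcf1 (0.0357) and Mt1 (0.0428).

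A single PBS library stood far from the other 3 for 6 of 157 genes examined, where chance gives about 5%. The gap as a share of the range was 0.921 for ENSMUSG00000120708 (replicate 4 low, 2.86 CPM), 0.949 for H1f5 (replicate 2 high, 23.2 CPM), 0.866 for Irf9 (replicate 4 low, 4.43 CPM), 0.832 for Kidins220 (replicate 2 high, 107 CPM), 0.895 for P4ha1 (replicate 1 high, 63.0 CPM) and 0.854 for Tnr (replicate 2 high, 128 CPM).

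The spike-in sequences, left out of all tests, had 86 counts in DMSO replicate 3, 3 in PBS replicate 2 and 0 in the other 5 libraries.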

How the results depend on the processing

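The count of 0 genes between PBS and DMSO held with other size factors, filters on a mean count of 10 or a mean of 20 CPM, all 17 libraries, limma-voom, the looser threshold, the replicate block and each library left out (0 to 0). Without a filter it was 21 and with DESeq2 29. The replicate numbers did not pair the samples (correlations of deviations of -0.019 to 0.018), and the block gave 0 genes and 0 list members. List members called were 16 without a filter, 2 with a mean count of 10 and 19 with DESeq2. For PBS replicates 1 and 2 against DMSO the mean-count filter gave 2, DESeq2 205 and leaving out a library 0 to 88. For PBS replicates 3 and 4 against DMSO, no filter gave 93, the mean-count filter 96, DESeq2 380, the looser threshold 68 and leaving out a library 0 to 105. Between the PBS pairs these were 80, 83, 444, 49 and 0 to 181, with 19 under DESeq2's size factors. For FGF2 and FGF10 against SAG they were 46, 7, 620, 5 and 2 to 4. Where a pair was reduced to 1 library, it was assumed to vary like the other groups. DESeq2's size factors moved the median of all genes by at most 0.017 on the log2 scale. Every gene named as called in PBS replicates 3 and 4 or between the pairs stayed called under other size factors, both filters and DESeq2. With libraries left out in turn, each of these genes was refitted once per library. Counted over refits and not over genes, the call was lost in 102 and 24 and kept in 192 and 158, for the 2 contrasts in that order.

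None of the genes whose sign reversed was called in PBS against DMSO. With the replicate block the log2(fold change) was -0.20 for Cdk1, -0.13 for Dusp6, 0.087 for Gfap, 0.27 for Gli2, 0.016 for Gpr17, -0.24 for Me1 and -0.032 for Ptch1. With limma-voom it was -1.14 for Cyp1b1, -0.15 for Me1, -1.93 for Pdgfrb and 0.64 for Xbp1. With single libraries left out the value ran from -0.28 to 1.06 for Ccn2, -1.64 to 0.31 for Col5a1, -0.049 to 1.14 for Cyp1b1, -0.84 to 0.18 for Eif2s3y, -0.82 to 0.080 for Fos, -0.48 to 0.31 for Gfap, -1.61 to 0.81 for Gli2, -0.43 to 0.34 for Gpr17, -1.01 to 0.12 for Irf9, -0.17 to 0.25 for Me1, -0.36 to 0.094 for Otx2, -0.48 to 0.78 for Pdgfrb, -0.080 to 0.23 for Ptch1, -1.09 to 0.064 for Spred2, -0.70 to 4.49 for Spry4, -1.19 to 0.15 for Srxn1 and -1.37 to 0.25 for Xbp1. The cause was not tested.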

Other observations

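The members named as highest or lowest here are those with a mean of at least 10 CPM in one of the groups. Signaling and transcription lists had no member called by edgeR in PBS against DMSO. Their counts at an unadjusted p under 0.05 were 3 or fewer in each direction, beside 2.92% of all genes higher and 1.45% lower. TGF-beta and YAP targets had a median of 0.11 in PBS replicates 1 and 2 against DMSO and of -1.20 in replicates 3 and 4. In replicates 3 and 4, 8 of 10 had a lower and 2 a higher mean. There 0 were called by edgeR and 4 were lower at an unadjusted p under 0.05, beside 3.43% of all genes. Ccn2, a secreted YAP target, had 22.1, 16.0 and 23.2 CPM in DMSO, 82.8 and 36.6 CPM in the first pair and 8.86 and 4.97 CPM in the second, so that it lay on either side of DMSO without passing (edgeR adjusted p = 0.208 between the pairs). ERK feedback genes had medians of -0.61 and 0.58 in the pairs, with Il17rd (0.88 ± 0.57) and Spred2 (-0.75 ± 0.94) as extremes over 4 libraries. Notch genes had -0.07 and 0.46, from Notch3 (0.86 ± 0.54) to Hey1 (-0.76 ± 0.39). BMP and ID genes had 0.67 and -0.16. Bmp4, a BMP ligand, had 17.8, 1.36 and 0.714 CPM in DMSO and 24.5, 47.5, 43.8 and 34.4 CPM in PBS, without overlap, and Id1 was the lowest of the list (-1.26 ± 1.29). EGF receptor pathway genes had a median of -0.08, between Erbb2 (1.13 ± 0.76) and Hbegf (-0.95 ± 0.45). Immediate early genes had 0.03, from Klf4 (1.21 ± 1.57) to Fos (-0.46 ± 0.55). Regional transcription factors had -0.09, with Zic4 (-0.70 ± 0.94) at the lower end and Irx1 at the upper. Clock genes had -0.19, from Hlf (1.39 ± 0.94) to Per1 (-1.21 ± 0.94), and glucocorticoid targets 0.19, with Ddit4 at the top. Among sex-linked genes Ddx3y had 14.4 to 20.5 CPM in DMSO and 5.86 to 13.2 CPM in PBS, and Eif2s3y overlapped (-0.37 ± 1.24).

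Stress, inflammatory and metabolic lists had medians from -0.45 to 0.36, beside 0.02 over all genes, again with 0 members called by edgeR in PBS against DMSO. At most 3 per list had an unadjusted p under 0.05 in either direction, beside 2.92% of all genes higher and 1.45% lower. Reactive astrocyte genes had 0.03 over 22 members, with Tm4sf1 (2.44 ± 1.93) at the top and Clcf1 at the bottom. NF-kB targets and cytokines had -0.45 over 6, from Sod2 (0.28 ± 0.30) to Relb (-1.68 ± 1.72), and interferon-induced genes 0.19 over 8, from Ddx58 (0.98 ± 1.57) to Irf9 (-0.61 ± 0.88). Heat shock genes had 0.36, with Bag3, a co-chaperone, at 7.80 to 11.9 CPM in DMSO and 15.2 to 36.0 CPM in PBS, and Hsp90aa1 at -0.25 ± 0.27. ER stress and ATF4 targets had 0.30, with Xbp1 lowest (-0.81 ± 1.04). NRF2 targets and metallothioneins had 0.23, from Gsta4 (20.4 to 43.6 CPM in DMSO, 50.8 to 68.6 CPM in PBS) to Srxn1 (-0.54 ± 1.02). Hypoxia targets had 0.25, from Egln3 (1.39 ± 1.34) to P4ha1 (-0.83 ± 0.42), and AHR targets 0.08, with Cyp1b1 (0.36 ± 1.20) and Tiparp (-0.20 ± 0.30). Glycolysis and lactate genes had 0.26. Ldha, lactate dehydrogenase A, had 29.9, 60.8 and 33.9 CPM in DMSO and 72.6, 87.6, 99.4 and 70.5 CPM in PBS, above DMSO in all 4, and Pfkfb3 was lowest (-1.85 ± 1.27). LXR targets and lipoprotein handling had 0.11, from Fabp5 (64.7 to 110 CPM in DMSO, 139 to 174 CPM in PBS) to Apod (-1.07 ± 0.61). Factors that regulate synapses had -0.24, with Nrcam (1.43 ± 0.56) highest and Sparcl1 among those below DMSO throughout. Rarres2 (1.30 ± 1.21) and Rsph1 (-1.35 ± 1.30) were the extremes of the ependymal markers, and Folr1 (-2.03 ± 1.89) the lowest choroid plexus marker.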
